A study of Homo sapiens with 9 samples.

Results

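Late-gene cells were those with RNA of the amnion transcription factor *TFAP2A* together with *ISL1*, *GATA3*, *DLX5* or *GABRP*, called late genes here. The study places *ISL1*, *DLX5* and *GABRP* late in amnion formation, while *GATA3* is not on its late list. A cell was taken when it held at least 1 UMI (a single captured RNA molecule) of *TFAP2A*, a sum of at least 2 UMIs over those 4 late genes, at most 2 UMIs of *FN1*, and no UMI of *GATA4* or *SOX17*, the last 3 genes being marks of hypoblast-like cells. There were 78 such cells among 19248, with 15 among 9151 at D4 and 63 among 10097 at D6. They made up 0.164% of the D4 cells (exact binomial 95% interval 0.0918 to 0.270%) and 0.624% of the D6 cells (0.480 to 0.798%). These intervals, like all others given here, cover counting error only.

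The cells came from human extra-embryoids, aggregates of the wild-type embryonic stem cell line ESI017, without the signal modulators of the study's other experiments. Per the study, the line was kept as expanded potential cells, aggregated in microwells with a ROCK inhibitor at first, and later moved to a second medium. Aggregates that showed inner and outer compartments under the microscope were collected, and those of independent experiments were pooled for each day. Each library, 1 for day 4 (D4) and 1 for day 6 (D6), was made from a pool of whole aggregates, so day and library cannot be told apart, no difference between cells or days could be tested over replicates, and no p-value is given. The 2 libraries held 151712246 UMIs in 10943 cells at D4 and 150320228 UMIs in 11483 cells at D6, and cells with 3430 to 27500 UMIs and at most 10% mitochondrial UMIs were kept, 9151 and 10097 in turn.

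The amnion is the thin epithelium that closes over the epiblast, the layer of pluripotent cells from which the embryo itself forms. BMP signals reach the epiblast, SMAD proteins carry them to the nucleus, and the ID genes, *MSX2* and *BAMBI* are among the genes that respond. *TFAP2A* is an amnion factor that the study also counts among its late-stage genes, and *ISL1*, a LIM-homeodomain factor, and *DLX5*, a homeobox factor, come on as *POU5F1* and *SOX2*, the core factors of pluripotency, are lost. *GATA3* is a zinc-finger factor of amnion, trophoblast and other tissues, and *GABRP* encodes a GABA receptor subunit.

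Late-gene cells were set beside 2 kinds of cell that shared a pluripotent profile, each with at least 5 UMIs of *POU5F1*, at least 1 of *SOX2*, at most 2 of *FN1* and none of the 4 late genes. Unlike late-gene cells, these were not required to lack *GATA4* and *SOX17*. Early TFAP2A-positive cells held at least 2 UMIs of *TFAP2A* and numbered 56 at D4 and 250 at D6. TFAP2A-negative cells held none and numbered 3047 at D4 and 4108 at D6. Depth was alike at D6, where the median cell had 13952 UMIs among late-gene cells, 13907.5 among early cells and 14225.5 among negative cells. At D4 the medians were 18487, 14550.5 and 15038, so the 15 cells of that day were deeper than their comparison cells, and a deeper cell passes a threshold in UMIs more easily.

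Among the D6 cells the 4 late genes were uneven. *GATA3* gave 133 UMIs in 59 of the 63 cells (144 CPM, the UMIs of a gene per 1000000 UMIs summed over these cells), *DLX5* gave 48 UMIs in 25 cells (52.1 CPM), and *ISL1* gave 45 UMIs in 25 cells (48.8 CPM). No UMI of *GABRP* was seen in the 921986 UMIs of the D6 cells. By combination, 25 cells had *GATA3* alone, 13 had *ISL1* with *GATA3*, 12 had *GATA3* with *DLX5*, 9 had *ISL1*, *GATA3* and *DLX5*, 3 had *ISL1* with *DLX5*, and 1 had *DLX5* alone. Thus 38 of the 63 cells held *ISL1* or *DLX5*, and the other 25 entered through *GATA3* only.

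The D4 cells held a different set. *GATA3* gave 32 UMIs in 14 of the 15 cells (116 CPM), alone in 13 of them and with 1 UMI of *GABRP* in 1. *ISL1* gave 2 UMIs, both in 1 cell. *DLX5* and *BMP4* gave no UMI among 274772. The label of advanced amnion-like cells, checked on *ISL1*, *GATA3*, *DLX5* and *BMP4*, therefore found all 4 genes at D6 only. The rule itself asks for the first 3 of these, so *BMP4* alone lies outside it. The study had already named *BMP4* as a gene of its amnion-like cells in these data, so it is not an independent check. The D4 cells are described here by their rule, as cells with *TFAP2A* and nearly always *GATA3*.

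Most cells lay close to the threshold. Late-gene sums ranged from 2 to 4 UMIs with a median of 2 at D4, and from 2 to 11 UMIs with a median of 2 at D6. Exactly 2 UMIs were held by 11 of the 15 D4 cells and by 34 of the 63 D6 cells. Just outside, 41 cells at D4 and 97 at D6 met every other criterion with a sum of 1 UMI, and 227 and 498 had none.

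**Figure D1:**
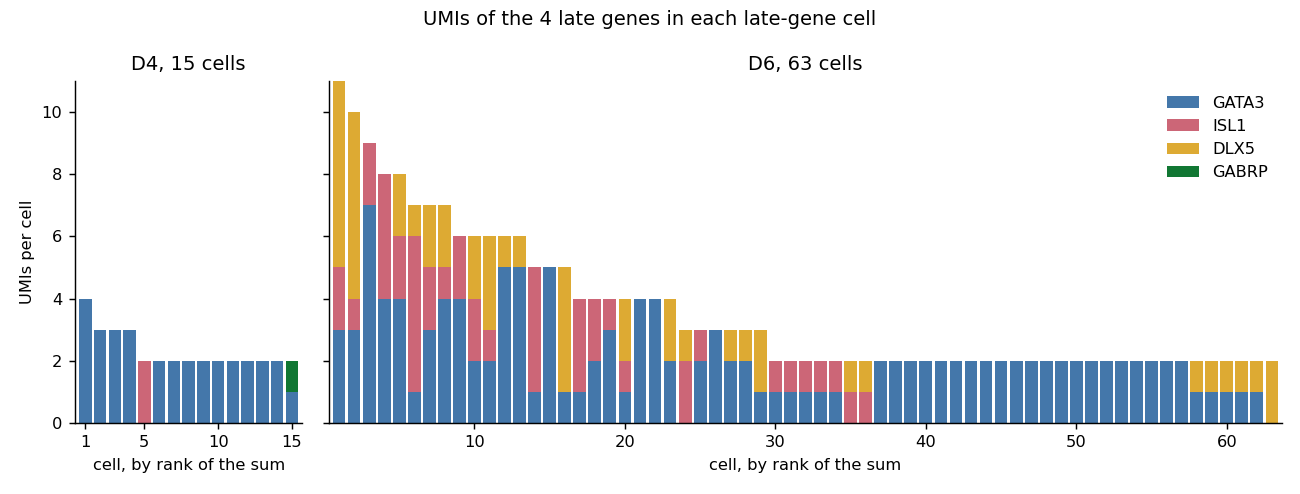
UMIs of the late genes in each late-gene cell, stacked by gene, with 1 bar per cell ranked by its total (y axis, UMIs) and 1 panel per day. The 15 D4 cells hold *GATA3* almost alone, whereas *ISL1* and *DLX5* fill many of the 63 D6 cells and the tallest bars hold *DLX5* or *ISL1*; totals run from 2 to 4 at D4 and from 2 to 11 at D6.

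*TFAP2A* itself was present at 98.3 CPM (27 UMIs) in the D4 cells and at 217 CPM (200 UMIs) in the D6 cells, where single cells held 1 to 12 UMIs with a median of 3. The pluripotency factors had not gone. *POU5F1* ranged from 4 to 47 UMIs in the D6 cells and from 9 to 33 in the D4 cells. *SOX2* was seen in all 15 D4 cells and in 48 of the 63 D6 cells, so 15 of the D6 cells had no *SOX2* UMI. The early and negative cells were required to hold both factors, and a difference in either gene is in part fixed by that choice.

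Shares of the rule's own genes are given as a description, since the cells with *TFAP2A* include the late-gene cells. Among all D6 cells free of the hypoblast marks, *ISL1* was seen in 5.78% of those with *TFAP2A* and 0.616% of those without, and *DLX5* in 5.78 and 0.282%. *GATA3* was seen in 18.4 and 4.77%. *GABRP*, in contrast, was seen in 1.37% of cells with *TFAP2A* and 1.62% of cells without, shares that lie close together. At D4 the *ISL1* share was not higher with *TFAP2A*, at 0.353% with it and 1.45% without (0.634% of those without that held the *POU5F1* and *SOX2* levels of the comparison cells), *DLX5* stood at 0.353 and 0.0945%, and *GATA3* at 18.7 and 10.1%.

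*TFAP2A* together with the late-gene sum was also seen in cells with the hypoblast marks. Of 59 such cells at D4 and 128 at D6, 44 and 65 were left out by *FN1*, *GATA4* or *SOX17*. Cells with late genes and no *TFAP2A* existed as well. A total of 108 of 3176 cells at D4 (3.40%, interval 2.80 to 4.09%) and 59 of 3897 at D6 (1.51%, 1.15 to 1.95%) met the late-gene sum without a *TFAP2A* UMI and free of the hypoblast marks. Of these sets, 40 cells at D4 and 23 at D6 also held at least 5 *POU5F1* UMIs and 1 *SOX2* UMI, out of 2838 (1.41%) and 3517 (0.654%) with that profile.

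Compared with early TFAP2A-positive cells of D6, late-gene cells carried more RNA of several other amnion genes, 2 claudins and *KRT8*. A gene was called when its CPM differed at least 2-fold and the exact conditional binomial 95% interval of the log2 ratio lay on the same side of 0, over genes whose 2 CPM values averaged at least 10 and that the rule did not use. Of 8606 genes, 1.36% were called higher in late-gene cells and 0.941% lower, or 117 and 81 genes, which became 46 and 70 when every cell was thinned to 3430 UMIs before the rule was applied. Of 8 amnion genes compared, 4 were called higher and none lower (median log2 ratio 1.00, against -0.02 over all genes compared), and they were *TFAP2C*, *BMP4*, *HAND1* and *KRT7*. A gene under 10 CPM in 1 class can meet the minimum only by being higher in the other. This held for *HAND1*, *KRT7* and *GATA2*, at 3.63, 7.53 and 7.81 CPM in early cells, which could only come out higher. As the cells were picked by amnion genes, these ratios describe them and test nothing.

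*HAND1*, a basic helix-loop-helix factor of amnion, trophoblast and mesoderm, had the highest log2 ratio among called genes that reached 50 CPM. It was seen in 18 of the 63 D6 late-gene cells (28.6%), with 0 UMIs in the lowest and median cell and 12 in the highest, and its summed level was 56.4 CPM against 3.63 CPM in early cells (log2 ratio 3.96, interval 3.06 to 4.96). Without the 3 cells richest in *HAND1* the log2 ratio was 3.33. With the same cells thinned to 3430 UMIs, *HAND1* was seen in 11.1% of late-gene cells and 0.4% of early cells. When thinning came before the rule, 18 late-gene cells were left and the early cells had no *HAND1* UMI, so the log2 ratio was bounded at 0.53 by 3 UMIs.

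*BMP4*, the ligand and the 1 marker of the label that the rule left out, was seen in 31 of the 63 cells (49.2%), with 0 to 6 UMIs per cell and a median of 0. The share was 21.2% in early cells and 8.69% in negative cells. Its level was 57.5 CPM against 19.0 CPM in early cells (log2 ratio 1.60, interval 1.05 to 2.14) and 6.74 CPM in negative cells (3.09, interval 2.65 to 3.51). The 3 classes thus kept the same order in share and in level. With cells thinned to 3430 UMIs the shares were 20.6, 8.40 and 2.29%, in the same order. Under every alternative that gave a value the log2 ratio of *BMP4* over early cells lay between 1.23 and 2.26.

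*TFAP2C*, the sister factor of *TFAP2A*, reached 83.5 CPM against 26.2 CPM in early cells (log2 ratio 1.67, interval 1.22 to 2.12) and was seen in 39 cells. *KRT7*, a simple-epithelial keratin, stood at 17.4 against 7.53 CPM (1.20, interval 0.21 to 2.15). The homeobox gene *DLX6*, neighbour of *DLX5*, and the T-box gene *TBX3* averaged under 10 CPM and were not counted, but stood at 16.3 against 1.95 CPM and 16.3 against 1.39 CPM. Under the same minimum *HEY1* (4.34 against 1.39 CPM) and *DLX3* (3.25 against 1.67 CPM) were higher, with intervals that span 0. *IGFBP3* (4.34 against 9.76 CPM), *IGFBP7* (1.08 against 1.67 CPM) and *POSTN* (1.08 against 1.12 CPM) were lower, also with intervals that span 0. Other amnion genes were not seen: *TFAP2B*, *MSX1*, *VTCN1*, *WNT6*, *ITGB6* and *CDH10* gave no UMI in the D6 late-gene cells, like *GABRP*, which allows at most 3.25 CPM of each.

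*CLDN10*, which encodes a tight-junction claudin, was also far above the early cells. It was seen in 49 of the 63 late-gene cells, from 0 to 57 UMIs per cell, and stood at 875 CPM against 86.8 CPM in early cells (log2 ratio 3.33, interval 3.14 to 3.53) and 58.2 CPM in negative cells. Early and negative cells therefore lay close to each other and the late-gene cells apart. *CLDN4*, another claudin, was at 44.5 against 9.48 CPM (2.23, interval 1.54 to 2.93).

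*KRT8*, a keratin of simple epithelia, was at 919 CPM against 396 CPM in early cells (log2 ratio 1.21, interval 1.09 to 1.34), its partner *KRT18* at 965 against 502 CPM (0.94, interval 0.83 to 1.06) and *KRT19* at 592 against 355 CPM (0.74, interval 0.59 to 0.89), the last pair short of the 2-fold call. Without the 3 cells richest in it *KRT8* was at 0.99, just short as well. *EZR*, which ties membrane to actin at the apical surface, was at 668 against 246 CPM (1.44, interval 1.29 to 1.59). Of 16 keratin and junction genes compared, 4 were called higher (*KRT7*, *KRT8*, *CLDN4*, *CLDN10*) and none lower, with a median log2 ratio of 0.32, so most of the list lay within a 2-fold difference.

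Beyond the lists, *HPGD*, which encodes the enzyme that inactivates prostaglandins, was at 99.8 CPM against 15.3 CPM in early cells (log2 ratio 2.70, interval 2.20 to 3.21), and *AHNAK*, a giant scaffold protein, at 85.7 against 16.5 CPM (2.38, interval 1.88 to 2.89). *TMEM54*, a membrane protein gene, was at 197 against 72.5 CPM (1.44). *PLPP1*, a lipid phosphatase, *CEMIP2*, a hyaluronidase, *SYNJ2*, a phosphoinositide phosphatase, *LINC00467*, a long noncoding RNA, and *CITED4*, a transcriptional co-regulator, had log2 ratios of 1.44, 1.41, 1.39, 1.33 and 1.25. Without the 3 cells richest in it *SYNJ2* was at 0.94, just short of the call. With thinning before the rule *PLPP1* was at -0.79, *LINC00467* at -1.05, and *CEMIP2* and *AHNAK* were bounded at 0.27 and 0.75 against early cells without a UMI, and *CITED4* was at 0.67 in late-gene cells with at least 5 *POU5F1* and 1 *SOX2* UMI. These genes were among the 15 highest ratios of called genes of at least 50 CPM.

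**Figure D2:**
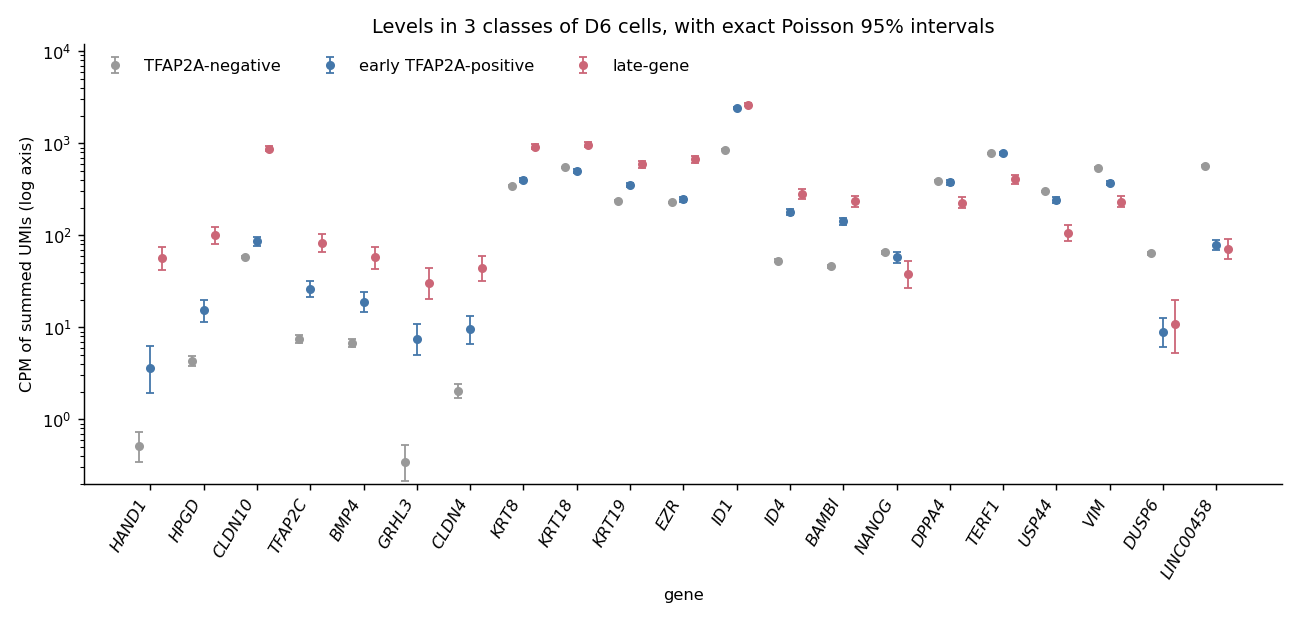
Level in CPM (y axis, log scale) of genes in late-gene, early TFAP2A-positive and TFAP2A-negative cells of D6, with exact Poisson 95% intervals as bars. *HAND1*, *CLDN10* and *HPGD* stand apart in late-gene cells, whereas *ID1* is alike in late-gene and early cells (2631 and 2431 CPM) and lower in negative cells (853 CPM).

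No pluripotency gene was called lower against early cells. Over 20 epiblast genes compared, which leave out *POU5F1* and *SOX2*, the median log2 ratio was -0.47. *NANOG* was at 38.0 against 57.5 CPM (log2 ratio -0.60, interval -1.16 to -0.08), *UTF1* at 38.0 against 71.4 CPM (-0.91), and *TERF1*, a telomere-binding protein gene high in stem cells, at 406 against 778 CPM (-0.94, interval -1.10 to -0.78). *PODXL*, a surface sialomucin, differed little, at 330 against 338 CPM (-0.04, interval -0.22 to 0.15).

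Among the called genes that were lower and reached 50 CPM was *USP44*, a deubiquitinase gene active in stem cells, at 106 CPM against 242 CPM in early cells (log2 ratio -1.18, interval -1.50 to -0.88). *C16orf89* had a log2 ratio of -1.02. Both calls ended under an alternative, *USP44* at -0.99 in late-gene cells with at least 5 *POU5F1* and 1 *SOX2* UMI, and *C16orf89* at -0.43 in those with no *FN1* or *APOA1* UMI. Both were smaller in size than the 15 highest upward ratios.

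In the BMP pathway a ligand was called and no other gene. Of 3 ligand genes compared, *BMP4* was called higher, *BMP7* was at 46.6 against 30.1 CPM (log2 ratio 0.63, interval 0.09 to 1.15), and *GDF11* was at 36.9 against 49.7 CPM (-0.43). None of 7 receptor and SMAD genes was called (median log2 ratio -0.02), nor any of 4 antagonists, nor any of 8 target genes (median 0.46). *ID1* stood at 2631 CPM in late-gene cells and 2431 CPM in early cells (0.11, interval 0.05 to 0.18), and *ID3* at 1195 and 1315 CPM (-0.14, interval -0.23 to -0.04). *MSX2* was at 67.2 against 38.8 CPM (0.79, interval 0.34 to 1.24) and *BAMBI*, a decoy receptor that BMP induces, at 235 against 143 CPM (0.72, interval 0.49 to 0.96).

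Genes of other lineages that share factors with amnion were read for comparison. Of 20 trophoblast genes, 14 gave no UMI in the D6 late-gene cells, among them *CGA*, *CGB5*, *GCM1*, *ERVW-1*, *TP63*, *VGLL1* and *ELF5*, and the list without *GATA3*, which the rule used, summed to 119 CPM, with *TFAP2C* at 83.5 CPM the most abundant of these. The 2 trophoblast genes called higher, *KRT7* and *TFAP2C*, are also in the amnion list. *GRHL2* and *GRHL3*, epithelial factors of surface ectoderm, were called higher against early cells, *GRHL3* at 30.4 against 7.53 CPM (log2 ratio 2.01, interval 1.20 to 2.83), while *TP63*, *KRT5* and *KRT17* of the same list were at 0. In the germ cell list *KIT* and *TFAP2C* were called higher of 4 compared. Under the 10 CPM minimum *PRDM1*, a germ cell factor, was at 7.59 against 0.558 CPM (log2 ratio 3.77, interval 1.37 to 7.07). *NANOS3* was at 3.25 against 0.558 CPM, *SOX15* at 6.51 against 2.23 CPM and *DND1* at 4.34 against 1.95 CPM, with intervals that span 0. These genes rested on 3 to 7 UMIs each. *DPPA3*, at 1.08 against 1.39 CPM, and *CXCR4*, at 2.17 against 2.23 CPM, lay slightly under early cells. *TCL1A* was at 0, as was *SOX17*, which the rule bars.

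Cells of the hypoblast side express *GATA3* and keratins strongly, which bears on the same genes. Among D6 cells with at least 10 UMIs of *FN1* and a UMI of *GATA4* or *SOX17*, *GATA3* stood at 222 CPM, *KRT8* at 2945 CPM and *APOA1*, an apolipoprotein gene of these cells, at 11763 CPM. In late-gene cells *APOA1* was at 65.1 CPM, against 80.3 CPM in early and 70.9 CPM in negative cells, and none of 7 hypoblast genes compared was called (median log2 ratio -0.16). The early and negative cells were not screened for *GATA4* and *SOX17*, and *SOX17* gave 35 and 852 UMIs in them at D6. *CLDN10* was at 14.6 CPM in those hypoblast-side cells and *HAND1* at 5.07 CPM, each far under its level in late-gene cells. *DLX5* was at 0.249 CPM there, but the rule chose late-gene cells by this gene, so no difference can be read from it. In the late-gene cells of D6 without any *FN1* or *APOA1* UMI, the log2 ratio over all early cells was 4.50 for *HAND1*, 1.38 for *BMP4*, 2.95 for *CLDN10* and 1.26 for *KRT8*.

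Mesoderm and streak genes were read in the same way. Of 2 mesoderm genes compared, *HAND1*, which the study also uses as a mark of mesoderm-like cells, was called higher, and the list summed to 300 CPM, of which *VIM* made 232 CPM, with *FOXF1*, *SNAI2*, *PDGFRA*, *COL3A1* and *HAND2* at 0. Of the streak genes, *SP5* was called higher, at 20.6 against 10.0 CPM (1.04), with *WNT3A*, *WNT3* and *FGF8* at 0. None of 15 cell-cycle genes was called (median log2 ratio -0.05), nor any of 6 NODAL genes (-0.11), 11 FGF genes (-0.07), 8 matrix genes (-0.17) or 2 homeobox and T-box genes (0.45), and *SP5* was the 1 called of 7 WNT genes (-0.09). Of the lists the study itself uses to stage amnion, which are not independent of these cells, *BMP4* was called among 4 late-stage genes (0.80), where *GSTO1* was at 195 against 112 CPM (0.81), and no gene among 3 early-stage (-0.02) or 3 progression genes (-0.28).

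**Figure D3:**
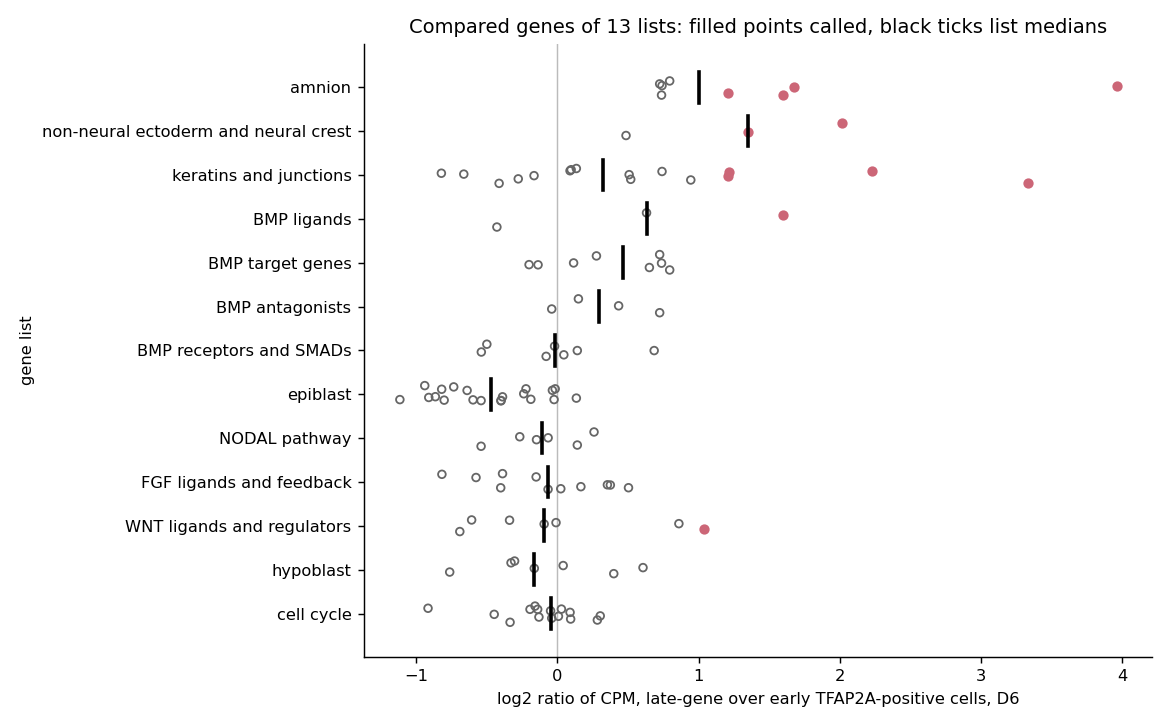
Log2 ratio of CPM (x axis), late-gene over early TFAP2A-positive cells of D6, for the compared genes of 13 lists (y axis), with filled points for called genes and a black tick at each list's median. The amnion points all lie right of 0 (median 1.00), most epiblast points lie left of it with none called (median -0.47), and cell-cycle points lie around it (median -0.05). Only genes averaging at least 10 CPM over the 2 classes are shown. The amnion genes *HAND1*, *KRT7* and *GATA2*, under 10 CPM in early cells, could therefore lie only right of 0.

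The start-site windows of *ISL1* and *HAND1* are shown because these genes mark the late cells, one by the rule and the other outside it, and because RefSeq gives each a single start. Each window is the 250 bases before that start on build GRCh38.p14, *ISL1* at chr5:51383198-51383447 on the plus strand and *HAND1* at chr5:154478228-154478477 on the minus strand, written 5′ to 3′, with motif letters in capitals. The motifs searched on both strands were the TFAP2 palindrome GCCNNNGGC, the SMAD motif GGCGCC, and the GATA motif AGATAA or its reverse TTATCT.
ISL1: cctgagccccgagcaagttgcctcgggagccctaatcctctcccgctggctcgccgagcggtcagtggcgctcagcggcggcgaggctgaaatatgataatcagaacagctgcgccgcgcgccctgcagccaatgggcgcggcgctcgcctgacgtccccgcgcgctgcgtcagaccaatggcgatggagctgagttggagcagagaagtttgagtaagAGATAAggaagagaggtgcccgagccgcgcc
HAND1: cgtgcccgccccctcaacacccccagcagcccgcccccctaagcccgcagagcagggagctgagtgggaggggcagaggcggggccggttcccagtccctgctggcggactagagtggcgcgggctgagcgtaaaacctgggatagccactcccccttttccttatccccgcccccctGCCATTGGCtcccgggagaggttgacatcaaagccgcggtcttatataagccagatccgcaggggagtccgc
*ISL1* held 1 GATA match and *HAND1* 1 TFAP2 match, and neither held the others. Over 35116 such windows the TFAP2 motif was found in 19.8%, the SMAD motif in 16.4% and the GATA motif in 9.17%, so either match is common. Both windows were richer in G and C, at 65.2 and 67.2%, than the median window at 58.0%. No binding was measured here.

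Set against TFAP2A-negative cells of D6, late-gene cells differed more widely, with BMP target genes now among the higher genes and some FGF feedback genes among the lower ones. Of 8558 genes, 2.3% were called higher and 2.19% lower, or 197 and 187 genes, which became 287 and 70 with thinning before the rule. All 7 amnion genes compared were called higher (median log2 ratio 3.09, against 0.00105 over all genes), namely *TFAP2C*, *MSX2*, *BMP4*, *BAMBI*, *HAND1*, *KRT7* and *KRT19*. Of these, *TFAP2C*, *MSX2*, *BMP4*, *HAND1* and *KRT7* were at 7.52, 5.79, 6.74, 0.511 and 5.24 CPM in negative cells. They met the 10 CPM minimum only through late-gene cells and could only come out higher. A further 14 amnion genes outside the rule lay under that minimum. *HAND1* was at 56.4 against 0.511 CPM (6.79, interval 6.12 to 7.48) and *HPGD* at 99.8 against 4.27 CPM (4.55, interval 4.19 to 4.89). This comparison and the former one use the same late-gene cells.

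Of 7 BMP target genes compared, 5 were called higher than in negative cells, *ID1*, *ID2*, *ID4*, *MSX2* and *BAMBI* (median log2 ratio 1.62). *ID1*, an inhibitor of helix-loop-helix factors, was at 2631 against 853 CPM (1.62, interval 1.57 to 1.68), *ID4* at 280 against 52.8 CPM (2.41, interval 2.22 to 2.59), *MSX2* at 67.2 against 5.79 CPM (3.54, interval 3.12 to 3.93) and *BAMBI* at 235 against 46.1 CPM (2.35, interval 2.14 to 2.55). Most of that distance already separated early from negative cells, by a log2 ratio of 1.51 for *ID1*, 1.76 for *ID4*, 2.74 for *MSX2* and 1.63 for *BAMBI*. Of the other parts of the pathway, *BMP4* and *BMP7* among 3 ligands and *FST* and *BAMBI* among 4 antagonists were called higher, and none of 6 receptor and SMAD genes.

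Further genes far above negative cells were *PCAT14*, a long noncoding RNA, at 604 against 31.4 CPM (log2 ratio 4.26), *FAM20A*, a secretory-pathway protein gene, at 159 against 16.7 CPM (3.25), *SAMD11* (3.13), and the homeobox gene *NKX1-2* (2.90). *PCAT14* lay at 291 CPM in early cells, between the other two classes. *TMEM54*, *AHNAK*, *SYNJ2* and *CLDN10*, high against early cells too, had log2 ratios of 2.79, 2.41, 2.36 and 3.91.

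On the lower side, *LINC00458*, a long noncoding RNA of pluripotent cells, was at 71.6 CPM against 570 CPM in negative cells (log2 ratio -2.99, interval -3.36 to -2.65). *CYP26A1*, which breaks down retinoic acid, was at 13.0 against 77.1 CPM (-2.57) and *DUSP6*, a phosphatase that FGF-ERK signalling induces against itself, at 10.8 against 63.8 CPM (-2.56, interval -3.62 to -1.68). For *LINC00458* and *DUSP6* the early cells had the low level as well, at 78.9 and 8.93 CPM, whereas *CYP26A1* lay between, at 32.1 CPM. With thinning before the rule *LINC00458* was at -0.82 and *CYP26A1* at 0.29 (interval -1.17 to 1.42), and *DUSP6* had no UMI left in late-gene cells, which bounds it at -0.31.

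*EDNRB*, an endothelin receptor gene, *ANOS1*, an extracellular matrix protein gene, *AK4*, a mitochondrial adenylate kinase gene, *SFRP1*, a WNT antagonist gene, *PHLDA1*, *FGFBP3*, an FGF-binding protein gene, and *FOXD3-AS1* had log2 ratios of -2.36, -2.34, -1.97, -1.88, -1.87, -1.81 and -1.54. With thinning before the rule *PHLDA1* was at -0.69, which ends its call.

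By list, beside the 2.3% of all genes called higher and 2.19% lower, 3 of 11 FGF genes were called lower than in negative cells (*SPRY1*, *DUSP6* and *ETV5*, all feedback or response genes) and the receptor gene *FGFR3* higher (median log2 ratio -0.06). *SPRY2* (0.20), *SPRY4* (-0.40) and *ETV4* (-0.67), genes of the same kind, were not called. Of 7 WNT genes, *SFRP1*, *SFRP2* and *FZD7* were called lower and *DKK3* and *SP5* higher. Of 21 epiblast genes, 5 were called lower, *UTF1*, *ESRG*, *ZIC2*, *OTX2* and *PRDM14*, and none higher (median log2 ratio -0.24). *OTX2*, a factor of anterior epiblast, was at 7.59 against 47.2 CPM (-2.64). *VIM*, the mesenchymal filament gene, and *CDH2*, N-cadherin, were called lower, with *VIM* at 232 against 540 CPM (-1.22). With thinning before the rule *CDH2* turned to 1.97 (interval 0.32 to 3.24) and *FZD7* to 0.70. In the same list 5 keratin and claudin genes were called higher. *FOXD3* was called lower in the ectoderm and neural crest list, where *GRHL2*, *GRHL3* and *FOXI3* were higher. None of 7 hypoblast and 15 cell-cycle genes was called.

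Within D6, cells were also ordered by the late-gene sum among those meeting the other criteria, in 5 steps of 498 cells with 0 UMIs, 97 with 1, 34 with 2, 13 with 3 or 4, and 16 with 5 or more. *HAND1* was at 2.46, 7.91, 14.5, 34.6 and 178 CPM along these steps. *CLDN10* was at 78.2, 129, 496, 1063 and 1547 CPM. Both levels were higher at each step than at the one before, though for *HAND1* the interval at 2 UMIs overlapped those of the steps on either side.

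*KRT8* stood at 397, 534, 597, 678 and 1931 CPM and *EZR* at 241, 258, 473, 518 and 1287 CPM, so most of their distance lay between the last 2 steps. *BMP4* was at 17.3, 18.7, 45.6, 47.5 and 96.1 CPM and *TFAP2C* at 20.1, 25.2, 66.4, 47.5 and 163 CPM. *HPGD* did not follow the order, at 11.4, 49.6, 108, 51.8 and 135 CPM.

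*USP44* was at 249, 202, 143, 108 and 19.2 CPM, and *TERF1* at 740, 624, 502, 397 and 192 CPM. *NANOG* was at 55.8, 53.9, 49.8, 34.6 and 14.4 CPM and *VIM* at 416, 390, 270, 333 and 33.6 CPM. These genes were thus lowest in the 16 cells richest in late genes. *ID3* had its highest level at 1 UMI and its lowest in the same 16 cells, at 1428 and 889 CPM. *POU5F1*, at 1356 CPM in the first step, was at 860 CPM in the last, and *SOX2* at 277 and 101 CPM. The last step rests on 16 cells of a single library, whose median depth of 12343 UMIs lay under the 13437.5 UMIs of the first step. The median mitochondrial share was 1.50, 1.44, 1.73, 2.64 and 2.96% along the steps, and its part in these differences was not tested.

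**Figure D4:**
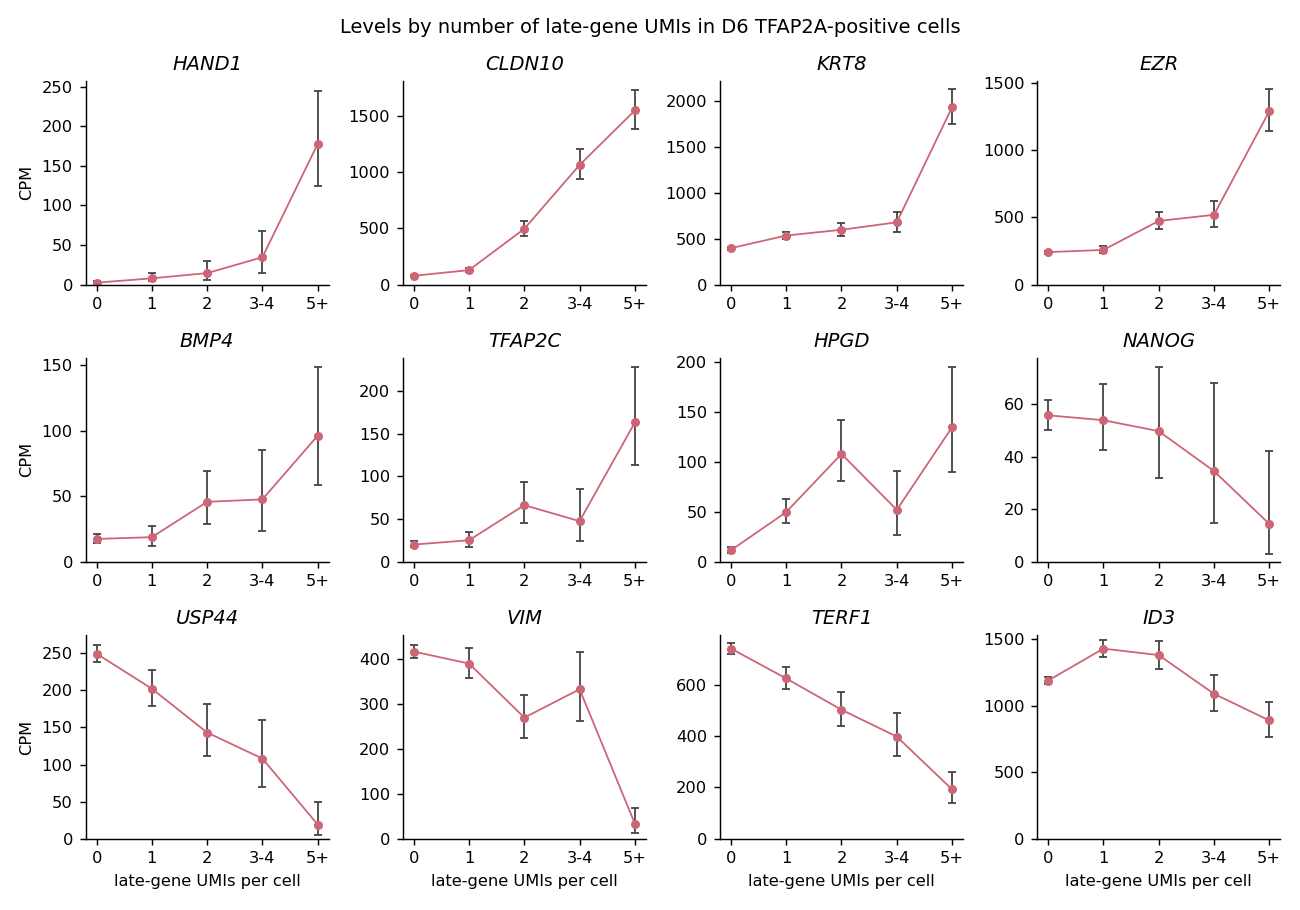
Level in CPM (y axis, linear from 0, 1 panel per gene) against the late-gene UMI sum (x axis, 5 steps) in D6 cells that met the other criteria, with exact Poisson 95% intervals as bars. *HAND1* runs from 2.46 to 178 CPM and *CLDN10* from 78.2 to 1547 CPM, while *USP44* runs from 249 to 19.2 CPM.

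A split chosen after the values were seen separated the 38 D6 cells with *ISL1* or *DLX5* from the 25 with *GATA3* alone. *HAND1* lay almost wholly in the former, with 51 UMIs in 17 of 38 cells (98.0 CPM) against 1 UMI in 1 of 25 cells (2.49 CPM), a log2 ratio of 5.30 (interval 2.75 to 10.63). *CLDN10* was at 1466 against 110 CPM (3.74), and *BMP4* at 86.4 against 19.9 CPM (2.12, interval 1.02 to 3.41), with a *BMP4* UMI in 26 of 38 and 5 of 25 cells.

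In the cells with *GATA3* alone, *BMP4*, *HAND1* and *CLDN10* lay near their levels in early cells, at 19.0, 3.63 and 86.8 CPM. *KRT8* was at 1266 against 468 CPM (log2 ratio 1.43), *KRT19* at 805 against 316 CPM (1.35) and *EZR* at 914 against 349 CPM (1.39) in the same split. *UTF1* was lower with *ISL1* or *DLX5*, at 13.4 against 69.8 CPM (-2.38), as was *TDGF1*, the NODAL co-receptor, at 94.1 against 242 CPM (-1.36), and *MKI67*, a proliferation gene, at 125 against 222 CPM (-0.83). *PCAT14* differed less (0.48) and *ID1* little (0.36). The D6 group was thus not uniform in these genes. The 38 cells also had a median mitochondrial share of 2.76% against 1.57% and a median depth of 12465 against 15302 UMIs, and the part of these in the differences was not tested.

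At D4 the late-gene cells also stood above TFAP2A-negative cells in BMP target genes, while *DLX5* and *BMP4* gave no UMI. Of 8297 genes, 1.96% were called higher and 1.12% lower, or 163 and 93 genes, which became 106 and 1 with thinning, 232 and 8 when *GATA3* was not counted, and 260 and 49 with at least 3 late-gene UMIs. Of 6 BMP target genes compared, 5 were called higher (median log2 ratio 1.07, against 0.04 over all genes), with *ID1* at 2111 against 976 CPM (1.11, interval 0.99 to 1.23), *ID3* at 1863 against 929 CPM (1.00, interval 0.88 to 1.13), *ID2* (1.04), *ID4* (1.24) and *BAMBI* at 142 against 58.4 CPM (1.28, interval 0.79 to 1.74). In the 4 cells with at least 2 *TFAP2A* UMIs *BAMBI* was at 0.34 and *ID4* at 0.60, which ends both calls. *ID3* passed the 2-fold call by less than the 0.0355 that centring on the median gene takes off, so that call ended as well. Against early TFAP2A-positive cells of D4 the log2 ratio of *ID3* was 0.35 (interval 0.20 to 0.50). Its distance from negative cells was thus in part already present in early cells. *PCAT14* was at 357 against 26.7 CPM (3.74), so it was far above negative cells on both days.

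Of 3 amnion genes compared at D4, *BAMBI* was called higher. In the study's late-stage list *PRKD1*, a protein kinase gene, was called higher of 2 compared, at 25.5 against 4.16 CPM (log2 ratio 2.62, interval 1.28 to 3.69), and *GSTO1* was at 87.3 against 143 CPM (-0.72). *HAND1* gave 1 UMI and *BMP4* none in the 15 cells, and a count of 0 allows up to 10.9 CPM, above the 3.88 CPM of *BMP4* in negative cells, so a lower level was not detectable at this depth. None of 14 keratin and junction genes was called (median log2 ratio -0.07). *KRT19* was at 218 CPM, with a log2 ratio of -0.16 (interval -0.55 to 0.20).

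*LEFTY1*, an inhibitor that NODAL signalling induces, gave 1 UMI in the 15 D4 cells (3.64 CPM) against 119 CPM in negative cells (log2 ratio -5.03, interval -10.33 to -2.55), and its neighbour *LEFTY2* was called lower too (-3.46). In the NODAL list *SMAD2* was called higher (1.02), but it was at -0.63 with at least 2 *TFAP2A* UMIs. *LINC00458* was at 255 against 862 CPM (-1.76), and 2 epiblast genes, *NANOG* (-1.14) and *SALL2* (-1.78), were called lower, calls that ended at -0.62 for *SALL2* with at least 3 late-gene UMIs and at 1.06 for *NANOG* in the 1 cell left when *GATA3* was not counted. *FST* was called lower at D4 (-1.44) among 3 antagonists.

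Other D4 genes with high ratios that stayed at a log2 ratio of 1 or more under every alternative that gave a value were *SAMD11* (2.15), *INPP4A* (1.97), *HIST1H2AH* (1.83), *NPAS1* (1.70), *UNC5B* (1.67), *BCOR* (1.41) and *CCDC160* (1.21). *ATP6V0A1* (1.43, lowest 0.41), *SASH1* (1.42, lowest 0.14), *UHRF1* (1.32, lowest 0.80), *ZNF655* (1.32, lowest 0.21) and *DCUN1D4* (1.22, lowest 0.48) did not. Each rested on 14 to 34 UMIs in the 15 cells.

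The remaining lower D4 genes were *LINC00836* (-2.16), *PES1* (-1.85), *NDUFAF2* (-1.76), *SRA1* (-1.60), *LAP3* (-1.57), *GEMIN6* (-1.54) and *PCCA-DT* (-1.51), on 4 to 7 UMIs each. All of these calls ended under some alternative, where the value nearest to 0 was -0.68 for *LINC00836*, -0.37 for *PES1*, -0.07 for *NDUFAF2*, -0.40 for *SRA1*, -0.69 for *GEMIN6* and -0.96 for *PCCA-DT*, and *LAP3* turned to 0.12. For *GEMIN6* and *PCCA-DT* keeping all deposited cells was enough.

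Between the days, most amnion genes compared were higher in D6 late-gene cells than in D4 ones. The 2 days also differed in the late genes seen, as 14 of the 15 D4 cells and 25 of the 63 D6 cells lacked *ISL1* and *DLX5*. The part of this in the day differences was not tested. In those 25 D6 cells *CLDN10* was at 110 CPM, *BMP4* at 19.9 CPM and *HAND1* at 2.49 CPM, against 65.5 CPM, no UMI and 3.64 CPM in all 15 D4 cells. The 1 *HAND1* UMI of D4 lay in the cell with *ISL1*, so the 14 D4 cells without *ISL1* and *DLX5* had none. Of 8430 genes, 2.38% were called higher at D6 and 2.27% lower, or 201 and 191 genes. This balance was not stable, with 3 and 68 after thinning, 17 and 209 when *GATA3* was not counted, 65 and 240 with at least 3 late-gene UMIs, 90 and 196 with at least 2 *TFAP2A* UMIs, 103 and 201 with no *FN1* or *APOA1* UMI, and 124 and 206 in cells of a narrower range of depth. Of 16 keratin and junction genes, *KRT19*, *CDH1*, *CLDN4* and *CLDN10* were called higher and *VIM* lower. Of 7 amnion genes compared, 5 were called higher at D6 (*TFAP2C*, *MSX2*, *BMP4*, *HAND1* and *KRT19*) and none lower (median log2 ratio 2.20, against -0.03 over all genes). Among those called, *BMP4* and *HAND1* met the minimum on level only through the D6 cells and could only come out higher there. *CLDN10* was at 875 CPM at D6 and 65.5 CPM at D4 (3.74, interval 3.07 to 4.50), and *TFAP2C* at 83.5 and 18.2 CPM (2.20, interval 0.91 to 3.86).

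*BMP4* had no UMI at D4, and its D6 level was 5.27-fold the limit of 3 UMIs over the 15 D4 cells. That figure is not a lower bound, since the interval of its log2 ratio, which counts the error at D6 as well, began at 2.05. With at least 2 *TFAP2A* UMIs, which left 4 D4 cells, the log2 ratio of the D6 level to the same limit was 0.75. *HPGD* (log2 ratio 4.78, interval 2.26 to 10.10), *SERPINB9*, a protease inhibitor gene (4.44, 1.92 to 9.77), *HAND1* (3.95, 1.41 to 9.28) and *DHX40*, an RNA helicase gene (3.84, 1.29 to 9.17), each rested on 1 UMI at D4. *CITED4*, on 2 UMIs, had a log2 ratio of 3.30 (1.39 to 6.37). *TMEM54*, *AHNAK*, *FRAT2*, *MSX2*, *FST* and *FBXO2* had log2 ratios of 2.76, 2.56, 2.22, 2.21, 2.19 and 1.93. The lowest value under an alternative ended the call for *TMEM54*, at -0.082 after thinning, and for *FST*, at 0.77 when *GATA3* was not counted. It did so for *FBXO2* too, at 0.97 with no *FN1* or *APOA1* UMI.

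Fewer D4 cells left some of these calls undecided. Where no UMI was left at D4, 3 UMIs bounded *HAND1* at 0.71 with at least 2 *TFAP2A* UMIs, *DHX40* at 0.55 with no *FN1* or *APOA1* UMI, and *FRAT2* at 0.21 when *GATA3* was not counted. TFAP2A-negative cells were higher at D6 as well in *BMP4* (3.88 to 6.74 CPM), *MSX2* (3.07 to 5.79), *HAND1* (0.234 to 0.511), *CDH1* (43.0 to 89.1), *FBXO2* (41.7 to 85.2) and *TMEM54* (15.2 to 28.5), but not in *TFAP2C* (7.57 to 7.52) or *KRT19* (244 to 237).

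Lower at D6 were *DUSP6*, at 10.8 against 83.7 CPM (log2 ratio -2.95, interval -4.18 to -1.82), the neuropeptide genes *NTS*, at 48.8 against 306 CPM (-2.65), and *GAL*, at 140 against 630 CPM (-2.17), the WNT antagonist gene *SFRP2*, at 177 against 681 CPM (-1.94), *VIM*, at 232 against 844 CPM (-1.86), and *TAGLN*, an actin-binding protein gene, at 23.9 against 91.0 CPM (-1.93). TFAP2A-negative cells were lower at D6 in the same genes, at 73.2 against 228 CPM for *NTS*, 234 against 679 CPM for *GAL*, 540 against 1178 CPM for *VIM*, 65.6 against 232 CPM for *TAGLN*, 457 against 602 CPM for *SFRP2* and 63.8 against 94.1 CPM for *DUSP6*. These day differences were therefore not particular to late-gene cells in direction. By list, 1 of 8 matrix genes (*TAGLN*), 2 of 7 WNT genes (*SFRP1* and *SFRP2*) and 3 of 12 FGF genes (*SPRY4*, *DUSP6* and *ETV5*) were called lower and none higher. Of 21 epiblast genes, *ZIC2* and *OTX2* were called lower and *SALL2* and *CDH1* higher.

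*INSIG1*, a sterol sensor, *DCUN1D4*, *MORN2* and *PHLDA1* had log2 ratios of -2.16, -1.97, -1.95 and -1.95. With at least 2 *TFAP2A* UMIs *PHLDA1* was at -0.98, just short of the call. *ID1* was at 2631 and 2111 CPM (0.32, interval 0.19 to 0.45), and of 7 BMP target genes only *MSX2* was called, higher at D6. The median mitochondrial share of the late-gene cells was 4.64% at D4 and 2.08% at D6, and its part in these differences was not tested.

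**Figure D5:**
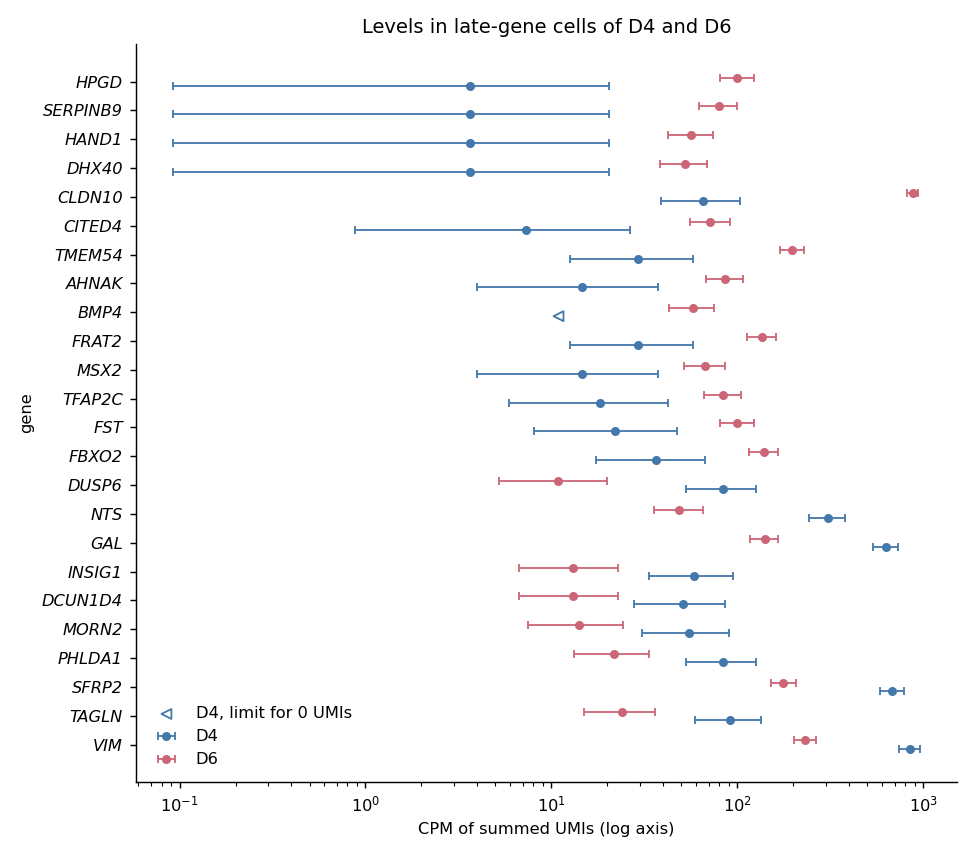
Level in CPM of genes in the late-gene cells of D4 and D6 (x axis, log scale), 1 row per gene, with exact Poisson 95% intervals as bars and a triangle at the 3-UMI limit where D4 had no UMI. *CLDN10*, *HPGD* and *HAND1* lie further right in the 63 cells of D6, and *SFRP2*, *GAL* and *VIM* in the 15 cells of D4.

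Doublets, droplets with more than 1 cell, were marked by Scrublet in 353 of the D4 cells (3.86%) and 432 of the D6 cells (4.28%). Of the late-gene cells it marked 0 at D4 and 1 at D6. A total of 40 cell barcodes occurred in both libraries, and none belonged to a late-gene cell.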

How the data were processed

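The authors deposited, per the file headers, unnormalized UMI counts of 36601 genes in the cells called by Cell Ranger 6.0.1, aligned to hg38 per the labels, 1 library (10x Genomics, 3ʹ) for each of 2 days. No cell had been removed. The authors' later Seurat steps were not used. Their versions as recorded with the data, Seurat 4.0.1 in R 4.0.3, differ from those the paper gives. A further 7 bisulfite libraries were not analysed here. The members, the comparison cells and the gene lists were chosen with earlier results of these data known, some lists being named after genes the study placed early or late in amnion formation.

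Cells with 3430 to 27500 UMIs and at most 10% mitochondrial UMIs were kept. UMIs were summed over the cells of a class and divided by the class total to give CPM (UMIs per 1000000), with exact Poisson 95% intervals. Log2 ratios had exact conditional binomial intervals, and shares exact Clopper-Pearson intervals. PCR duplicates are collapsed by UMI, but all intervals cover counting error only. A count of 0 was given the limit of 3 UMIs over the class. With 1 library per day no test across genes was run. Genes named were the 15 highest and 10 lowest ratios among called genes that reached 50 CPM in either class, with genes of the fixed lists; a few genes named by this rule are not reported here. Doublets were marked by Scrublet in scanpy 1.11.5 and kept. Python 3.11.15, numpy 2.4.6, scipy 1.17.1, pandas 2.3.3 and matplotlib 3.10.9 were used, and the procedure was tested on simulated data. Alternatives were other thresholds of the rule, depth limits, thinning to 3430 UMIs, filters on level, scaling and mean cell CPM. The supplied genome was of another build than the files and no coordinates were taken from it. Promoter windows came from RefSeq on GRCh38.p14.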

Additional observations from a re-analysis of the deposited data

Results flagged for a closer look

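Several genes had log2 ratios of opposite sign on the 2 days, with the counting interval on either side of 0 in each. With 1 library per day the difference was not tested. Against TFAP2A-negative cells, the log2 ratio of late-gene cells at D4 and at D6 was -0.72 and 0.78 for *GSTO1*, a glutathione transferase gene, 0.34 and -0.24 for *L1TD1*, an RNA-binding protein gene of stem cells, and -1.44 and 1.05 for *FST*, which binds activin. It was -3.32 and 0.50 for *DHX40*, where D4 rested on 1 UMI, 0.42 and -0.58 for *NTS*, and 1.03 and -0.98 for *INSIG1*.

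Against early TFAP2A-positive cells, the D4 and D6 log2 ratios were -0.47 and 0.74 for *KRT19*, -0.75 and 0.81 for *GSTO1*, 0.39 and -0.40 for *L1TD1*, and 0.48 and -0.80 for *ESRG*. They were -1.59 and 0.43 for *FST*, 0.35 and -0.14 for *ID3*, and 0.72 and -0.32 for *GAL*. *GSTO1*, *L1TD1* and *FST* thus had the same signs against both kinds of comparison cell, which were set against the same late-gene cells.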

How the results depend on the processing

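No paired analysis was possible because each day had 1 library and the bisulfite samples, whose labels share replicate numbers, have no files here. The share of late-gene cells depended on the rule. At D4 it was 0.164%, and 0.0109% when each cell was thinned to 3430 UMIs, 0.0437% with at least 3 late-gene UMIs, 0.0109% when *GATA3* was not counted, 0.0437% with at least 2 *TFAP2A* UMIs, and 0.0765% with no *FN1* or *APOA1* UMI. At D6 it was 0.624%, and 0.178, 0.287, 0.218, 0.456 and 0.178% in turn, or 0.475% with at least 5 *POU5F1* and 1 *SOX2* UMI.

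The count of genes called, 198 against early cells at D6, was 116 after thinning, 410 with at least 3 late-gene UMIs, 490 when *GATA3* was not counted, 20 over genes of at least 50 CPM, and 361 with no filter. Against negative cells at D6 it was 384, and 583 with at least 3 late-gene UMIs, 672 when *GATA3* was not counted, 64 over genes of at least 50 CPM, and 833 with no filter. At D4 it was 256, and 107 after thinning, 27 over genes of at least 50 CPM, and 412 with no filter. Between the days it was 392, and 71 after thinning, 226 when *GATA3* was not counted, and 113 over genes of at least 50 CPM. The cause was not tested, apart from the fewer genes compared at 50 CPM and the 1 and 18 late-gene cells left after thinning.

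Thinning turned the log2 ratio of *LINC00467* to -1.05 and of *PLPP1* to -0.79 against early cells, of *CDH2* to 1.97, *CYP26A1* to 0.29 and *FZD7* to 0.70 against negative cells of D6, and of *TMEM54* to -0.082 between the days. At D4, when *GATA3* was not counted 1 late-gene cell was left, with *LAP3* at 0.12 and *NANOG* at 1.06, and with at least 2 *TFAP2A* UMIs *SMAD2* was at -0.63. Of the other gene values, 1571 against early cells, 1724 and 1478 against negative cells of D6 and D4, and 1337 between the days stayed within the counting interval, and 217, 264, 154 and 176 moved beyond it with the same sign. Leaving out the 3 cells richest in a gene, or the cell richest in late genes, was added after the data were seen. The D4 values rest on 15 cells with 274772 UMIs.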
